A study of Mus musculus with 8 samples.

Results

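The replication-dependent histone genes are the genes whose symbols begin with Hist1h, Hist2h, Hist3h or Hist4h. This rule on the name alone found 67 of the 32285 genes in the deposited count matrices. There were 6 genes of the linker histone H1, 18 of H2A, 18 of H2B, 12 of H3 and 13 of H4. On the mouse genome (GRCm38) 54 lie on chromosome 13, 10 on chromosome 3, 2 on chromosome 11 and 1 on chromosome 6. Over 50089 cells they gave 682677 unique molecular identifiers (UMIs, each standing for 1 captured RNA molecule), which was 0.228% of all UMIs. A UMI was seen for 65 of the 67 genes, and Hist1h2ba and Hist1h2bq had none.

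The cells were CD45.2-positive immune cells sorted from the brains of mice aged 16 weeks and measured by droplet single-cell RNA-seq with the 5′ kit of 10x Genomics. There were 8 libraries, 1 for each combination of genotype and treatment, so no condition had a second library. The genotypes were wild type (WT, C57BL/6J) and AppNL-G-F, a knock-in of the amyloid precursor protein gene with a humanized amyloid-beta region and the Swedish, Iberian and Arctic mutations. Control mice drank water, mice with acute colitis drank 2% dextran sulfate sodium (DSS) for 1 week, mice with chronic colitis went through 3 cycles of 5 days of 2% DSS, and mice with food allergy were sensitized to ovalbumin 3 times and then given it by mouth for 7 days. Each library pooled samples marked with hashtag antibodies. The study's legends count several mice behind its AppNL-G-F groups, but no source used here ties a hashtag to a mouse, so the library was the sample in every comparison.

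Histones are the proteins around which DNA is wound. H2A, H2B, H3 and H4 form the core of the nucleosome, and H1 binds the DNA between nucleosomes. The genes studied here are switched on when a cell copies its DNA in S phase. Their mRNAs are unusual in that most carry no poly(A) tail and end just past a short stem-loop, which the protein Slbp binds and the U7 small nuclear ribonucleoprotein helps to cut. Some of these genes can also give a longer, polyadenylated mRNA. The reverse transcription of the kit starts from a poly(dT) primer, so the values below describe the histone RNA that such a primer captures. How far this differs from all histone mRNA was not tested.

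The stem-loop sequences are shown because they are the shared end of these mRNAs. A stem of 6 bases around a loop of 4 bases was found in an annotated transcript of 44 members, in 6 versions. Capitals mark the 2 arms of the stem.
Hist1h1e and 25 other members of H1, H2A, H2B and H3: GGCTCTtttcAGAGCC
Hist1h4d and 6 other H4 genes: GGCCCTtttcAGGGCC
Hist1h3e and 5 other members: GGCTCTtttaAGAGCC
Hist1h4i and Hist2h4: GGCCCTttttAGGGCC
Hist1h4j and Hist1h4b: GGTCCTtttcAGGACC
Hist2h2ac: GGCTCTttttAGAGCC
The stems with CCC or TCC in their left arm were found in H4 genes and no other family. The stem-loop of Hist1h1e lies at chr13:23621782-23621797 on the minus strand, inside the gene at chr13:23620629-23622558, and that of Hist1h2ae lies at chr13:23570668-23570683 on the minus strand, inside the gene at chr13:23570517-23571220. In 22 of the 44 members the longest annotated transcript ran at least 100 bases past the loop (1153 bases in Hist1h1e), and in the other 22 it stopped sooner. No such stem-loop lay in the annotated transcripts of 23 members.

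The promoters are shown because members of a family share letters there. RefSeq promoter windows (GRCm38.p6, from 250 bases before to 50 bases after the start) matched 62 members. The 8 letters of the octamer, ATTTGCAT on one strand or ATGCAAAT on the other, were in 7 of 18 H2A windows and 6 of 16 H2B windows. They were in none of the 6 H1, 10 H3 or 12 H4 windows, and in 1.75% of all 27025 promoter windows. CCAAT (or ATTGG) was in 53 of the 62 windows, but in 3 of the 12 H4 windows, against 37.9% of all windows. The 2 motifs share no letters by which 1 match would count as the other. The window of Hist1h2ae, the H2A gene with the most UMIs, lies at chr13:23571171-23571470 on the minus strand and overlaps the window of the H2B gene Hist1h2bg (chr13:23571150-23571449), which runs the other way. Capitals mark the octamer.
Hist1h2ae promoter window: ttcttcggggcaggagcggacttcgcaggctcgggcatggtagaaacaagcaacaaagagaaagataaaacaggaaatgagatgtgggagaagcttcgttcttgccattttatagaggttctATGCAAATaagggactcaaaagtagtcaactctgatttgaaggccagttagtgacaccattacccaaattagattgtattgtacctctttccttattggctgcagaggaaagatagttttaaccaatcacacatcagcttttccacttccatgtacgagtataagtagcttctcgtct
A match is a description of the letters and says nothing about which factor binds.

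The 8 libraries kept 4879 to 7199 cells each, with 25626190 to 54618574 UMIs in cells and medians of 2775.5 to 4130.0 UMIs per cell. Cells were given a type by markers on each cell, and between 561 and 1068 cells per library stayed without one. Each library had 337 to 846 cells with more than 1 hashtag, and any pair of libraries shared 34 to 72 cell barcodes. The WT control library stood apart in the histone values: of the 16 cell types with at least 20 cells in every library, its histone level was the lowest of the 8 in 9. Fibroblasts and erythroid cells were found although most such cells lie outside a CD45 gate.

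A small number of members carried most of the signal. Hist1h1e led with 136927 UMIs (20.1% of all histone UMIs), followed by Hist1h1b with 99194 (14.5%) and Hist1h2ae with 80206 (11.7%). Hist1h1d gave 7.01%, Hist1h4d 5.78%, Hist1h1a 5.56%, Hist1h1c 5.24%, Hist1h2ap 4.15% and Hist1h3e 3.52%. The remaining 6 of the 15 most abundant members were Hist2h2ac, Hist1h2bj, Hist1h2ab, Hist1h4i, Hist1h2ak and Hist2h2bb, at 1.25% to 1.72% each. Together the 15 made up 86.4%, and 27 members had fewer than 1000 UMIs. By family the shares were 52.4% for H1, 22.7% for H2A, 7.58% for H2B, 6.61% for H3 and 10.7% for H4. These are shares of tagged 5′ ends, 1 per molecule whatever its length. They also depend on sequence likeness, since the counting tool drops reads that map to several genes: 7.63% of the stretches of 90 bases in Hist1h2ap were found in no transcript of another gene, against 100% in Hist1h1a and Hist1h1b. Hist1h1e overlaps Hist1h2be on the same strand, so reads in the overlap cannot be told apart.

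Histone RNA was highest in cells of the erythroid and early B lineages. The level below is CPM, the UMIs of a gene scaled to the same total of 1e6 UMIs, summed over the 67 genes in all cells of a type in a library. Erythroid cells had a median of 8802 CPM over 6 libraries (4630 to 12230). Pro-B and large pre-B cells, early B cells that express the surrogate light chain, had 8180 CPM (5920 to 10780, 8 libraries). Small pre-B and immature B cells, the next stage, had 8106 CPM (3218 to 11130), and mature B cells had 1046 CPM (712.1 to 1419). All 8 values of either early B type lay above all 8 values of mature B cells. The gate of small pre-B and immature B cells also held cycling cells. Of those sorted by cell cycle genes below, 10.7% were S-gene cells and 22.7% G2/M-gene cells. When cells were clustered instead, the cluster of that name had 1741 CPM. Cells with under 2 UMIs of Igll1, Vpreb1, Vpreb2 and Dntt could enter the gate, so shallow cells of the earlier stage may lie in it. Their part was not tested.

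Below the early B cells came basophils at 4402 CPM (2698 to 4959, 5 libraries), neutrophil precursors at 4213 CPM (2190 to 4445, 7 libraries) and monocytes at 3454 CPM (761.7 to 4785). The place of monocytes depended on how cells were typed. When cells were clustered, 41.2% of this gate lay in a cluster named for neutrophil precursors, which had 4771 CPM. Another 49.8% lay in the cluster named for monocytes, which had 362.6 CPM. Progenitors had 2425 CPM (1905 to 3462, 7 libraries) and plasmacytoid dendritic cells 2288 CPM (498.2 to 3494). NK cells (1048 CPM), immature neutrophils (1018 CPM), CD4 T cells (1004 CPM), mast cells (909.9 CPM in 7 libraries) and CD8 T cells (786.5 CPM) followed. Type 2 and type 1 dendritic cells (736.6 and 614.2 CPM), mature neutrophils (575.8 CPM) and border macrophages (549.0 CPM) were lower. The lowest medians were those of innate lymphoid cells of group 2, ILC2 (499.4 CPM), fibroblasts (483.6 CPM in 5 libraries), plasma cells (475.9 CPM), gamma-delta T cells (435.4 CPM) and migratory dendritic cells (295.1 CPM in 4 libraries). Microglia had at least 20 cells in 1 library, at 415.7 CPM. The ranges of each pair of neighbours in this order overlapped, so the order between neighbours is within the spread of the libraries. In sums over a cell type, more cells in S phase and more histone RNA per cell cannot be told apart.

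**Figure D1:**
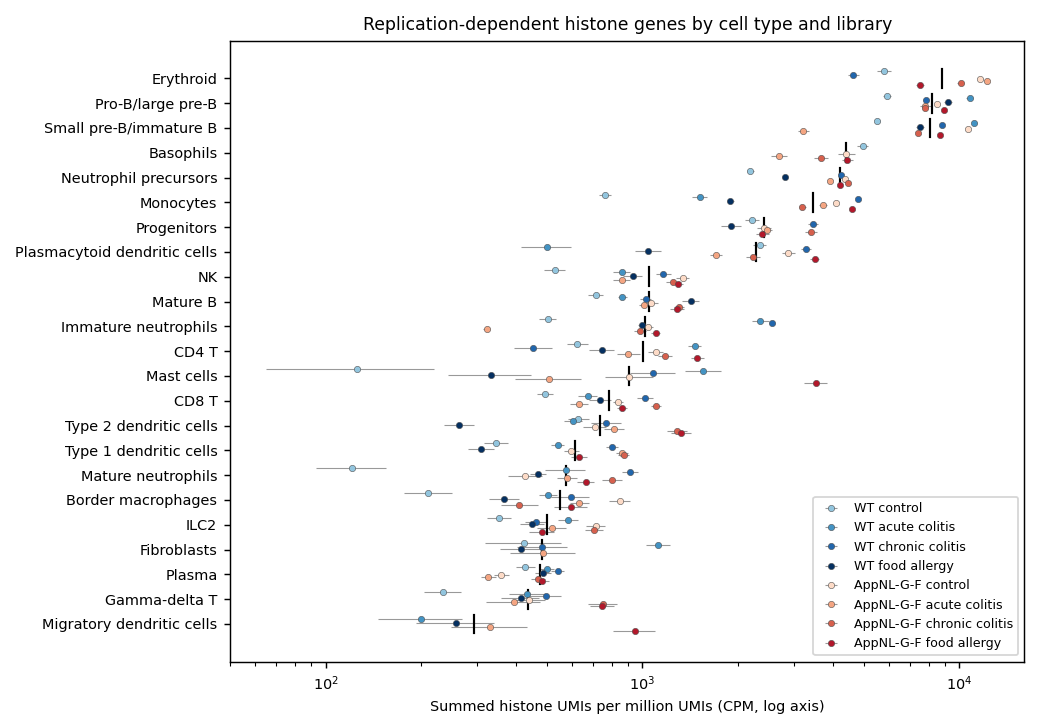
Summed level of the 67 histone genes (CPM, log axis) in each cell type, with 1 point per library of at least 20 cells, its exact Poisson 95% interval and a bar at the median over libraries. The 2 early B types and erythroid cells sit highest, with medians of 8106 to 8802 CPM, and the WT control points lie low in many types.

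The share of cells with a histone UMI was compared after thinning each cell to 1000 UMIs. It was 84.0% (median; 76.8% to 93.2%) in pro-B and large pre-B cells, 72.7% (57.4% to 79.9%) in small pre-B and immature B cells and 50.8% (34.6% to 58.7%) in mature B cells. Mature neutrophils, which do not divide, still gave 34.8% (8.43% to 44.2%). At full depth the shares were 97.35%, 89.95%, 79.4% and 66.75%, and the median UMIs per cell in these 4 types were 9227, 2157, 2506 and 3085. Thinning left out 0 to 3, 4 to 31, 4 to 25 and 4 to 64 shallower cells per library of these types. Ambient RNA was estimated at 2.60% to 54.6% of the histone UMIs of mature neutrophils in the 8 libraries, and the shares of cells with a UMI were not read as shares of cells that express the genes.

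The cell types fell in much the same order by their cell cycle genes. Median CPM of the histone genes over the 16 types went with that of 23 S-phase genes (Pearson 0.889 on log values, Spearman 0.844) and of 20 G2/M genes (0.927 and 0.894). Without the 2 early B types, 14 types remained, with Pearson 0.756 for the S genes and 0.893 for the G2/M genes. The points share libraries and depth, so these values describe the types and carry no p-value.

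The families differed between libraries in a way that the sum hides. In pro-B and large pre-B cells the H1 genes had 3946 to 5102 CPM, and the WT control library, at 4200 CPM, lay within the range of the others. The H2A genes had 750.4 CPM in the WT control library, 3376 CPM in the WT acute colitis library and 1887 to 2285 CPM in the other 6. H2B likewise had 336.8 CPM in WT control, 1194 CPM in WT acute colitis and 562.5 to 644.8 CPM elsewhere. H3 (275.8 CPM) and H4 (357.5 CPM) were also lowest in WT control, against 459.9 to 873.0 CPM and 686.7 to 980.6 CPM in the other libraries. The core histones thus set the low place of WT control in these cells and H1 did not.

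Small pre-B and immature B cells showed the same split for WT control. Their H1 genes had 3848 CPM there, against 4182 to 5501 CPM in 6 libraries, while their H2A genes had 783.2 CPM against 1537 to 3602 CPM. The exception was the AppNL-G-F acute colitis library, in which H1 (1836 CPM) and H2A (640.3 CPM) were both lowest. Its S genes (1105 CPM) and G2/M genes (2083 CPM) were the lowest of the 8 as well, against medians of 2580 and 4778 CPM. In monocytes, phagocytes that arise in the bone marrow, all 5 families were lowest in WT control, with 471.4 CPM for H1 and 97.89 CPM for H2A. With 1 library per condition, the library and its treatment cannot be told apart.

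Across the types H1 made up 34.4% of the histone UMIs in fibroblasts and 57.3% in basophils, with the other types between. H2A ranged from 11.1% in ILC2 to 25.1% in monocytes. H2B made up 31.5% in fibroblasts, followed by 14.9% in migratory dendritic cells.

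Most members followed the early B pattern. Of the 57 members with at least 100 UMIs, and over the 16 cell types found in every library, 32 had their highest pooled CPM in pro-B and large pre-B cells and 21 in small pre-B and immature B cells. The steepest were Hist1h1a and Hist1h2ah, each 35.7 times the median type, and Hist1h1b was 17.4 times. For Hist1h1a this was 676.7 over 18.94 CPM. For Hist1h2ah it was 5.107 over 0.143 CPM, a median near the floor, so its ratio is uncertain. Hist1h1e was 8.87 times and Hist1h1c 4.77 times the median type.

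The other 4 members were highest elsewhere, and they were singled out after their values were seen. Hist1h2bc (H2B) had 30.04 pooled CPM in mature neutrophils, 2.63 times the median type. Hist2h2aa1 (H2A) was also highest in mature neutrophils, at 5.85 CPM. Hist2h2be (H2B) was highest in plasmacytoid dendritic cells at 17.3 CPM, and Hist3h2a (H2A) in border macrophages at 7.864 CPM, from 55 UMIs. Hist3h2a overlaps Trim17 on the same strand, so its reads are uncertain.

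Hist1h2bc was higher still in fibroblasts, in the 5 libraries with enough of them. It had 180.5 CPM in WT control, 230.8 CPM in WT acute colitis, 90.43 CPM in WT chronic colitis, 164.4 CPM in WT food allergy and 87.89 CPM in AppNL-G-F acute colitis. All 5 values lay above its pooled level in mature neutrophils. The libraries of mature neutrophils ran from 2.429 to 121.2 CPM, so the ranges of the 2 types overlapped.

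**Figure D2:**
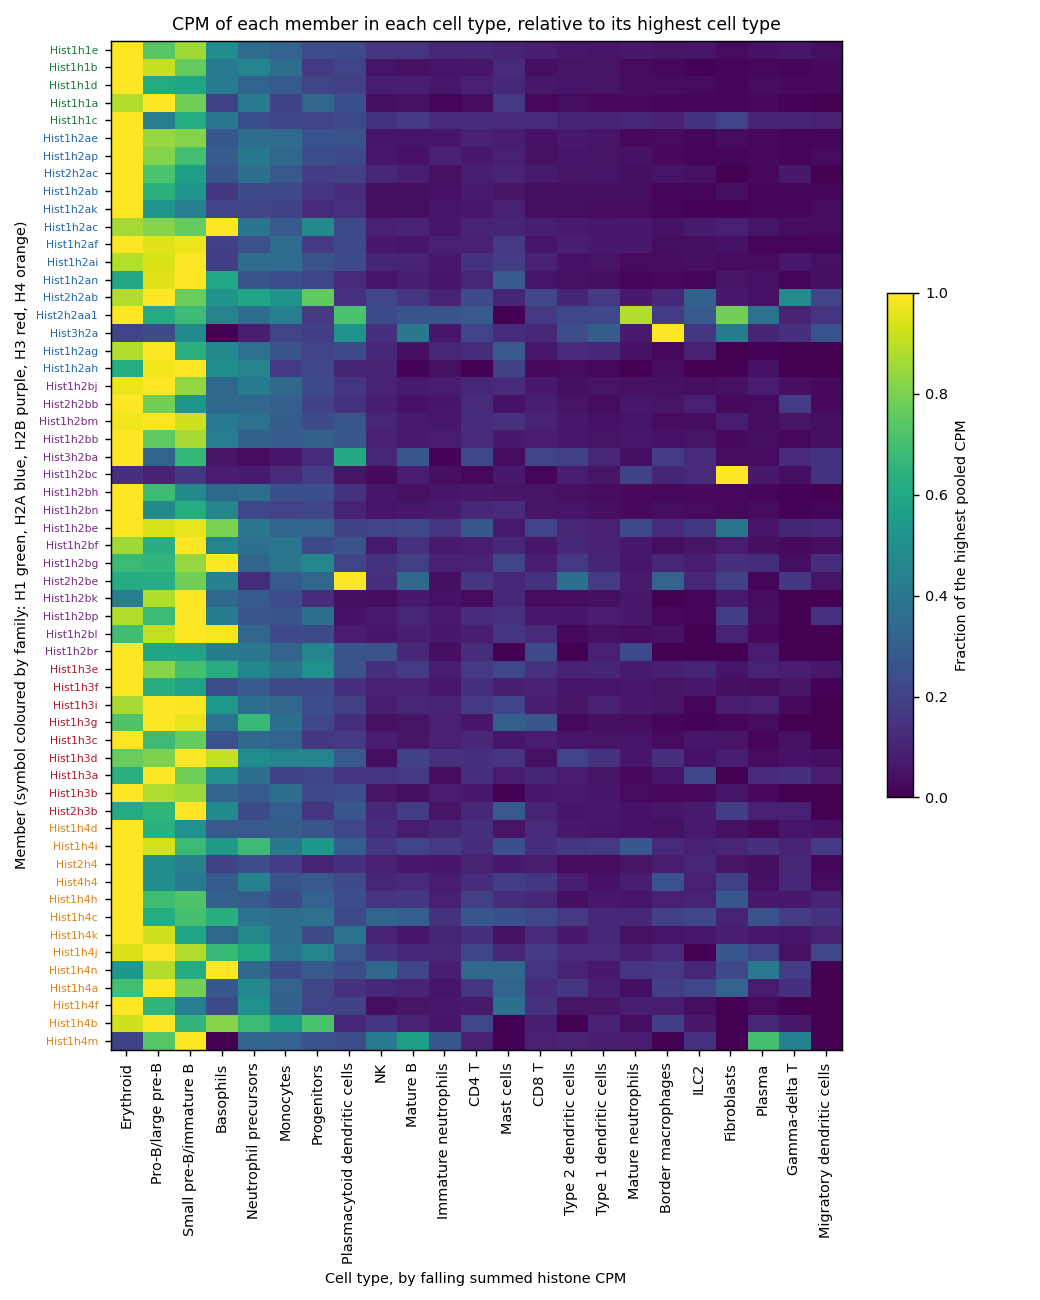
Pooled CPM of the histone members (rows) in each cell type (columns), scaled to each member's highest type, so 1 is the highest. Most members are highest in erythroid or early B columns, while Hist1h2bc is highest in fibroblasts and Hist3h2a in border macrophages.

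To see the histone genes within 1 cell type, cells were thinned to 2000 UMIs and sorted by the S and G2/M genes. An S-gene cell had at least 5 UMIs of the S genes and no fewer of them than of the G2/M genes, a G2/M-gene cell had at least 5 UMIs of the G2/M genes and more of them than of the S genes, and the other cells had under 5 of either. In pro-B and large pre-B cells the 67 genes gave 1803 pooled CPM in cells with neither list (190 cells, 497.8 to 3446 CPM over 5 libraries). S-gene cells gave 7847 CPM (289 cells, 3842 to 9821 CPM over 7 libraries), and G2/M-gene cells gave 10640 CPM (238 cells, 8302 to 16540 CPM over 8 libraries). The ranges of cells with neither list and of S-gene cells did not overlap.

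In small pre-B and immature B cells the step was wider. Cells with neither list, 66.6% of those sorted, had 1364 CPM. S-gene cells (10.7%) had 16060 CPM and G2/M-gene cells (22.7%) had 16730 CPM. By S genes alone, over both early B types together, cells with none of their UMIs had 1810 CPM, those with 1 to 4 had 5433 CPM, those with 5 to 9 had 12600 CPM, those with 10 to 19 had 11940 CPM and those with 20 or more had 15120 CPM.

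Other types repeated the order. Neutrophil precursors had 1381, 4016 and 4932 CPM in cells with neither list, S-gene cells and G2/M-gene cells, and monocytes had 445.4, 5105 and 6239 CPM. Plasmacytoid dendritic cells went from 482.4 to 3658 and 10860 CPM, and erythroid cells from 1175 to 7571 and 17460 CPM. In immature neutrophils, S-gene cells (5217 CPM) lay above G2/M-gene cells (3754 CPM). Mature B cells with neither list, 96.0% of those sorted, had 720.2 CPM.

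**Figure D3:**
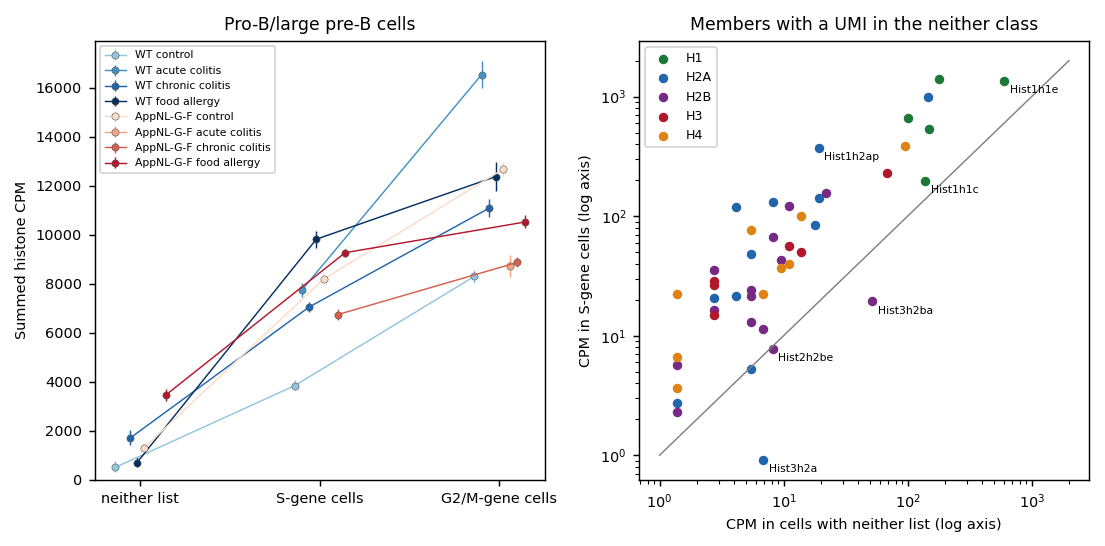
Left, summed histone CPM (linear axis, with exact Poisson 95% intervals) in cells with neither list, S-gene cells and G2/M-gene cells of the pro-B and large pre-B gate, with 1 point per library of at least 10 cells, joined within a library. Right, pooled CPM of each member in S-gene cells against cells with neither list (both axes log, grey line of equal CPM, colours by family), where Hist3h2ba lies below the line and Hist1h2ap far above it.

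The members were tested on UMIs summed per library and class, with the library as a block and edgeR's quasi-likelihood test. A member was called where its p, adjusted over all genes by the Benjamini-Hochberg method, was under 0.05. Between S-gene cells and cells with neither list of the pro-B and large pre-B gate, 5 libraries had at least 10 cells of each class. Of 28 members tested, 27 were higher in S-gene cells and 1 was lower, while 24.6% of all genes tested were higher and 21.4% lower. The members' median log2 fold change was 3.01 against -0.02 for all genes. A gene was tested where its counts passed a filter over both classes together. The filter took in members seen almost only in S-gene cells: Hist1h3g had 0 UMIs with neither list, Hist1h2bh and Hist1h3c 2 each and Hist1h2ak 3. Such members could hardly come out lower, so the count and the median are partly set by the filter. S-gene cells also held more UMIs per cell, with a median of 13588 against 3293, and whether depth had a part was not tested. Leaving out each of the 5 libraries in turn gave 25 to 28 members called.

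Hist1h2ap (H2A) had 64.64, 484.2, 249.5, 433.3 and 460.4 CPM in the S-gene cells of the WT control, WT chronic colitis, WT food allergy, AppNL-G-F control and AppNL-G-F food allergy libraries. In cells with neither list it had 0, 0, 14.28, 7.544 and 50.16 CPM in the same order. The groups did not overlap, and the log2 fold change was 4.58 ± 0.34 (SE; adjusted p = 5.793e-10, edgeR).

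The linker histone Hist1h1b had 941.5, 1108, 1990, 1471 and 1641 CPM in S-gene cells against 43.29, 95.73, 0, 37.72 and 521.7 CPM, a log2 fold change of 3.68 ± 0.37 (adjusted p = 5.246e-08, edgeR). The highest value with neither list was that of AppNL-G-F food allergy, which still lay under every S-gene value. Hist1h2ab (H2A) rose by 4.2 ± 0.41 (adjusted p = 3.07e-08, edgeR), with 30.92 to 154.0 CPM against 0 to 15.05 CPM. Hist1h2ak (H2A) had 369 UMIs in S-gene cells and 3 in the others, a ratio of CPM of 24.41 (95% interval 8.287 to 118.9, counting error only).

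Hist1h3g (H3) was seen in the S-gene cells alone, with 147 UMIs against 0, which makes it at least 9.724-fold higher with 3 UMIs over the group as the floor. With Hist1h3g at that bound the members' median stays at 3.01. Hist2h4 (H4) rose by 3.81 on the log2 scale, with ranges that overlapped.

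Hist1h1e, the most abundant member, changed less. It had 764.5, 1239, 1532, 1427 and 1831 CPM in S-gene cells and 303.0, 656.4, 171.4, 456.4 and 1053 CPM with neither list, a log2 fold change of 1.67 ± 0.19 (adjusted p = 3.253e-07, edgeR). Hist1h1c (H1) had 98.37 to 244.0 CPM against 21.65 to 220.7 CPM and rose by 0.77 ± 0.22 (adjusted p = 0.005829, edgeR). Both kept a clear level in cells with neither list.

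Hist3h2ba (H2B) went the other way. It had 22.48, 24.21, 25.59, 15.04 and 13.78 CPM in S-gene cells against 108.2, 68.38, 14.28, 49.03 and 40.13 CPM, lower in 4 of 5 libraries, and fell by 1.21 on the log2 scale (SE 0.39, adjusted p = 0.01356, edgeR). Without the AppNL-G-F control library (adjusted p = 0.0858) or the AppNL-G-F food allergy library (0.05412) the call was lost. Its symbol places it in the set, but its level did not follow the S genes in these cells.

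Between G2/M-gene cells and S-gene cells of the same gate, 7 libraries gave both classes. Of 42 members tested, 24 were higher in G2/M-gene cells and 0 lower, against 11.0% of all genes higher and 14.2% lower. The members' median log2 fold change was 0.56 against 0.00 for all genes. At an unadjusted p under 0.05 edgeR gave 31 higher and 0 lower, and DESeq2 called 16 higher and 0 lower. The shares of all genes in these settings are not given, so these counts are not read as results about the members. The largest rise was that of Hist2h2ab (H2A), by 1.65 ± 0.43 on the log2 scale (adjusted p = 0.006418, edgeR).

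Hist1h1c rose here, from 98.37, 180.1 and 244.0 CPM (lowest, median and highest library) in S-gene cells to 263.5, 403.8 and 730.6 CPM in G2/M-gene cells, by 0.99 ± 0.16 on the log2 scale (adjusted p = 9.017e-05, edgeR). Hist3h2ba rose from 13.78, 22.48 and 29.52 CPM to 32.5, 35.98 and 76.57 CPM, by 0.94 ± 0.22 (adjusted p = 0.002477, edgeR). These were the 2 members of 42 whose libraries did not overlap between the classes. The number of all genes without overlap was not counted. Hist1h1e rose by 0.61 and Hist1h1b by 0.41 on the log2 scale.

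Genes that process and carry histones were higher in S-gene cells and several were lower again in G2/M-gene cells. In the first comparison 9 of 16 genes of histone mRNA processing, 10 of 14 histone chaperones and 4 of 8 replacement histones were higher, with 0, 0 and 2 lower. In the second, 0 of 18, 1 of 14 and 5 of 9 were higher and 7, 7 and 1 lower. Slbp, which binds the stem-loop shown above, rose by 2.44 ± 0.21 in S-gene cells (higher in 5 of 5 libraries; adjusted p = 7.549e-09, edgeR). From S-gene to G2/M-gene cells it went from 404.0, 535.8 and 587.4 CPM to 278.6, 319.7 and 402.0 CPM and fell by 0.72 on the log2 scale in 7 of 7 libraries (SE 0.08, adjusted p = 3.171e-07, edgeR). The S and G2/M genes chose the cells, so their own values here are not a result.

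The chaperone Nasp, which holds H3 and H4, rose by 2.44 and then fell by 0.87 on the log2 scale, and Chaf1b, a subunit of the factor that loads new H3 and H4, rose by 2.46 and then fell by 1.5. Asf1b, another H3 and H4 chaperone, rose by 4.91 and did not pass the test in the second comparison. Among replacement histones, which are made outside S phase too, H2afz rose by 3.22 in S-gene cells and H2afx by 3.04. H1f0, a linker histone known from cells at rest, had 43.29, 290.9 and 820.5 CPM with neither list and 19.67, 41.59 and 79.44 CPM in S-gene cells, and fell by 2.57 on the log2 scale in 5 of 5 libraries (adjusted p = 2.627e-08, edgeR).

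**Figure D4:**
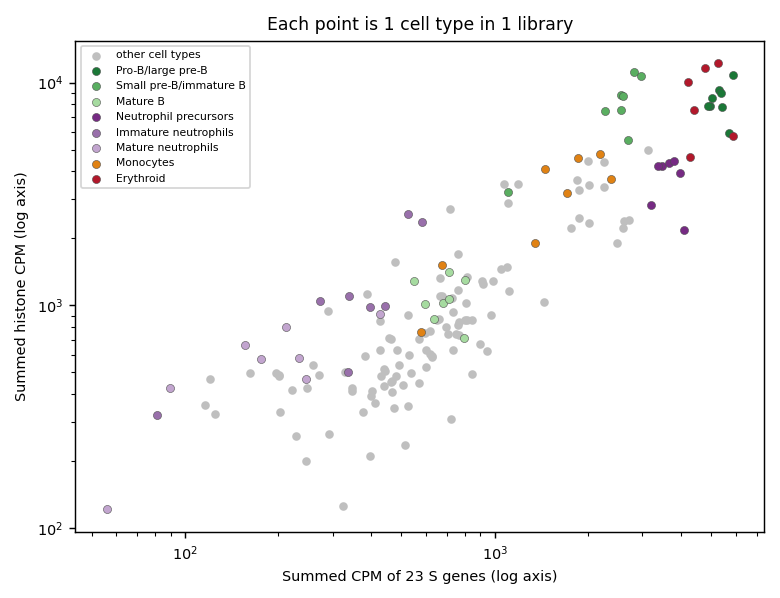
Summed histone CPM against the summed CPM of the 23 S genes, with 1 point per cell type and library (both axes log). Points of the early B, erythroid and neutrophil precursor types lie at the upper right, and those of mature neutrophils at the lower left.

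The B lineage was then compared stage by stage in all 8 libraries. From pro-B and large pre-B cells to small pre-B and immature B cells 14 of the 53 members tested were higher in the earlier stage and 4 lower, where 29.7% of all genes were higher and 30.7% lower. The members' median log2 fold change was 0.16 against -0.04 for all genes, and no member's libraries were apart between the stages. How many of all genes were apart was not counted. All 23 S genes and 19 of 20 G2/M genes were higher in the earlier stage. The count depended on how cells were typed: clusters in place of gates gave 33 of 38 members higher in the earlier stage and 1 lower (29.9% and 30.1% of all genes), and cells with neither list alone gave 3 of 9 higher and 0 lower (10.8% and 13.3%).

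Hist1h4i (H4) had 78.05, 91.64 and 145.8 CPM (lowest, median and highest library) in pro-B and large pre-B cells and 28.99, 65.95 and 78.19 CPM in the next stage, higher in 8 of 8 libraries, by 0.66 ± 0.14 on the log2 scale (adjusted p = 0.0005371, edgeR). Hist1h1a (H1) had 532.1, 675.2 and 978.0 CPM against 167.6, 509.9 and 719.7 CPM and was higher by 0.63 ± 0.15 (adjusted p = 0.001909, edgeR). Hist1h2ag and Hist2h2bb were higher by 0.75 and 0.72, and Hist1h4k by 0.65. Their ranges overlapped.

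Of the 4 lower members, Hist3h2ba was lowest by fold. It had 24.05, 29.18 and 42.68 CPM in pro-B and large pre-B cells and 42.24, 53.94 and 100.5 CPM in the next stage, lower in 8 of 8 libraries, and fell by 0.86 on the log2 scale (SE 0.13, adjusted p = 2.181e-05, edgeR). Hist1h2bf fell by 0.62, Hist1h2bc by 0.52 and Hist1h1c by 0.34. Hist1h1e, Hist1h2ae, Hist1h1d and Hist1h2ap did not pass the test, with log2 fold changes of -0.05, 0.20, 0.16 and 0.30. With clusters the direction turned for Hist1h1c (0.66), Hist1h1e (0.87) and Hist1h2bc (0.39), and in cells with neither list Hist3h2ba was at 0.02.

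From the gate of small pre-B and immature B cells to that of mature B cells nearly every member fell. Of 53 tested, 52 were higher in the earlier stage and 0 lower, against 27.0% and 28.0% of all genes. The median log2 fold change was 2.95 against -0.02 for all genes, and in 35 of the 53 the libraries of the stages did not overlap. The exception was Hist3h2a, at 0.20 (adjusted p = 0.6612, edgeR). How many of all genes had no overlap between the stages was not counted. In mature B cells alone 36 members passed the filter on counts. Other members entered with the help of the earlier stage, where they are high, and could hardly come out lower. The count and the median are thus partly set by the filter. At an unadjusted p under 0.05 edgeR gave 52 higher and 0 lower, and DESeq2 called 54 higher and 0 lower. DESeq2 took in every gene with at least 1 count, so it tested another set of members. The shares of all genes in these settings are not given, so these counts are not read as results about the members. All 23 S genes and all 20 G2/M genes were higher in the earlier stage.

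Hist1h1b had 497.9, 1185 and 1509 CPM (lowest, median and highest library) in small pre-B and immature B cells and 38.07, 71.95 and 157.8 CPM in mature B cells, a log2 fold change of 3.77 ± 0.25 (adjusted p = 4.356e-08, edgeR). Hist1h1e had 787.7, 1733 and 2137 CPM against 192.7, 314.2 and 401.7 CPM, a log2 fold change of 2.28 ± 0.14 (adjusted p = 2.659e-08, edgeR). Hist1h2ae, whose promoter is printed above, had 375.6, 1092 and 1920 CPM against 39.56, 73.93 and 156.4 CPM and was higher by 3.53 ± 0.29. In none of the 3 did the groups overlap.

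Larger folds belonged to rarer members. Hist1h3b was higher by 4.65 and Hist1h3g by 4.10 on the log2 scale (both H3), Hist1h2af by 4.0 and Hist1h2bk by 3.98. Hist1h2ah had 70 UMIs against 1, a ratio of 86.79 with a 95% interval of 15.07 to 3476. Hist1h1c was higher by 1.71, Hist1h4i by 1.63 and Hist3h2ba by 1.15.

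The cells with neither list gave a smaller difference. With them alone, 9 of 23 members were higher in small pre-B and immature B cells and 0 lower, beside 16.8% and 19.5% of all genes. Hist1h1e then had medians of 615.5 and 253.7 CPM (log2 fold change 1.09 ± 0.13, adjusted p = 1.117e-05, edgeR), Hist1h1a was higher by 1.55 and Hist1h1b by 1.01. With clusters in place of gates, 11 of 33 members were called, 8 higher and 3 lower, beside 23.6% and 26.8% of all genes. The cluster named for small pre-B and immature B cells (2388 cells) had 1741 CPM, and a cluster that the markers left unnamed (1332 cells) had 12580 CPM. Of the cells gated as small pre-B and immature B, 50.4% lay in the cluster of that name, 19.4% in the unnamed cluster and 24.9% in a cluster named for mature B cells. The unnamed cluster also held 51.2% of the pro-B and large pre-B gate, and its part in the changed calls was not tested. With these clusters the direction turned for Hist1h1b (-0.23), Hist1h2ae (-0.53) and Hist1h2ap (-1.41), while Hist1h1e stayed higher in small pre-B and immature B cells.

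Of the fixed lists, 8 of 18 processing genes, 10 of 14 chaperones and 8 of 9 replacement histones were higher in small pre-B and immature B cells, with 1, 2 and 1 lower. Slbp had 163.9, 307.0 and 330.1 CPM against 90.28, 119.5 and 131.4 CPM, a log2 fold change of 1.14 ± 0.10 (adjusted p = 4.235e-07, edgeR). H2afx was higher by 3.25 and H2afz by 2.08, while H3f3a, a replacement H3, was higher by 0.63. In the comparison of the 2 early B stages, 12 of 18, 11 of 14 and 4 of 9 were higher in pro-B and large pre-B cells, with 0, 1 and 2 lower.

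In the neutrophil lineage the members were compared with mature neutrophils, first for precursors with azurophil granules and then for immature neutrophils with secondary granules. Both comparisons use the same mature neutrophils, so their values are set side by side only. The line between immature and mature neutrophils depended on typing. Of the immature gate 39.0% lay in a cluster named for mature neutrophils. Of the mature gate 25.2% lay in a cluster named for immature neutrophils. For precursors, 37 of 41 members were higher and 2 lower, against 45.4% of all genes higher and 33.1% lower, with a median log2 fold change of 1.88 against 0.34. For immature neutrophils, 23 of 37 were higher and 1 lower, against 20.2% and 21.6%, with a median of 1.18 against -0.01. In 18 of 41 members the libraries of precursors and mature neutrophils did not overlap, and in 0 of 37 those of immature and mature neutrophils. The same was not counted over all genes. In mature neutrophils alone 17 members passed the filter on counts. Others entered with the help of the precursors or immature neutrophils and could hardly come out lower. These counts and medians are thus partly set by the filter. A library entered from 10 cells of each group, so WT acute colitis took part with 17 precursors although it is not among the 7 libraries with a precursor level above. Without it 38 of 43 members were higher in precursors and 3 lower, against 40.2% and 36.3% of all genes.

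Hist1h1a had 72.26, 251.3 and 333.5 CPM (lowest, median and highest library) in precursors and 0, 16.25 and 22.61 CPM in mature neutrophils, a log2 fold change of 3.46 ± 0.24 (adjusted p = 3.809e-09, edgeR). Hist1h1b had 124.8, 674.8 and 864.9 CPM against 0, 42.09 and 94.73 CPM (3.38 ± 0.33, adjusted p = 1.364e-07, edgeR), and Hist1h2ae had 148.1, 476.0 and 562.3 CPM against 1.931, 35.28 and 49.39 CPM (3.14 ± 0.23, adjusted p = 6.452e-09, edgeR). In all 3 the lowest precursor library lay above the highest mature library. Hist1h3g and Hist1h2an were higher by 3.33 and 3.25.

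In immature neutrophils Hist1h2ae had 17.85, 98.76 and 301.6 CPM, higher than in mature neutrophils by 1.88 ± 0.44 (adjusted p = 0.003198, edgeR), and Hist1h1e had 112.6, 239.1 and 652.6 CPM against 23.17, 130.7 and 269.1 CPM, higher by 1.2 ± 0.20 (adjusted p = 0.0002591, edgeR). The largest rises were those of Hist1h2bn (2.43), Hist1h2bh (2.15), Hist1h3d (2.00) and Hist1h2ak (1.88). Hist1h1a and Hist1h4i did not pass the test, at -0.13 and -0.21, and turned to 1.0 without cells of several hashtags and to 1.18 with clusters.

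Hist1h2bc was the member that was lower in both comparisons. It had 2.429, 23.46 and 121.2 CPM in mature neutrophils, against 5.922, 14.11 and 30.66 CPM in precursors (lower in 7 of 8 libraries) and 1.313, 4.894 and 22.83 CPM in immature neutrophils (lower in 8 of 8). It fell by 1.60 on the log2 scale in precursors (SE 0.22, adjusted p = 8.207e-06, edgeR) and by 1.58 in immature neutrophils (SE 0.28, adjusted p = 0.0004628, edgeR). Hist2h2aa1 was lower in precursors as well, by a log2 fold change of -1.86 ± 0.48 (adjusted p = 0.002403, edgeR), from 85 UMIs against 52. The groups overlapped for both genes.

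Among cells with neither list, 16 of 26 members were called for precursors, 15 higher and 1 lower against 38.8% and 36.0% of all genes, with Hist1h1a higher by 2.76, Hist1h1b higher by 2.69 and Hist1h2bc lower at -1.37. The filter again ran over both groups together, and Hist1h3g had medians of 8.734 CPM in precursors and 0 CPM in mature neutrophils. Such members could hardly come out lower, so this count is partly set by the filter. For immature neutrophils 4 of 17 were called, where 16.0% of all genes were higher and 21.0% lower: Hist1h4d was higher (0.65), and Hist2h2aa1 (-1.16), Hist1h4i (-1.05) and Hist1h2bc (-1.56) were lower. Of the 18 processing genes 16 were higher in precursors and 1 lower, of 14 chaperones 12 and 1, and of 9 replacement histones 6 and 2. In immature neutrophils 4 of 16, 6 of 14 and 4 of 8 were higher, with 1, 2 and 3 lower, and 8 of 22 S genes and all 20 G2/M genes were higher. Ambient RNA, estimated below, made up as much as 54.6% of the histone UMIs of mature neutrophils, in the AppNL-G-F control library.

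Genotype and treatment were compared in an additive fit of all 8 libraries for each of the 16 cell types, which has 3 residual degrees of freedom and cannot test an interaction. In 462 tests of a member in a type, 3 were higher in AppNL-G-F than in WT and 0 lower, beside 0.0414% and 0.139% of all genes. For acute colitis against control 0 were higher and 0 lower (0.131% and 0.242% of all genes), for chronic colitis 2 were higher and 0 lower (0.0913% and 0.206%), and for food allergy 0 and 0 (0.0756% and 0.133%). At an unadjusted p under 0.05, edgeR gave 124 member tests for the genotype (95 higher), 59 for acute colitis (45 higher), 75 for chronic colitis (71 higher) and 38 for food allergy (35 higher). Over all genes 7.29%, 7.45%, 7.98% and 5.7% of the 140124 tests passed at that level, and 3.18%, 3.77%, 4.03% and 2.91% passed in the higher direction. DESeq2 called 4, 0, 4 and 0. These counts rested on single libraries. Without the WT chronic colitis library or without its AppNL-G-F counterpart, 35 members were called for the genotype, 34 of them higher, where 0.239% and 0.238% of all genes were higher and 0.297% and 0.296% lower. Without either control library or either acute colitis library 8 or 9 were called. Without AppNL-G-F control, 24 of 522 were higher and 2 lower in acute colitis (0.783% and 0.393% of all genes), 33 higher and 0 lower in chronic colitis (0.770% and 0.443%) and 13 higher and 1 lower in food allergy (0.589% and 0.220%). Without AppNL-G-F chronic colitis 30 were higher and 0 lower in chronic colitis (0.306% and 0.333%). Without WT acute colitis, 7 members were called lower in acute colitis (0.333% of all genes), and 6 higher in chronic colitis (0.219%). Leaving out any of the other libraries gave 0 to 5 calls for acute colitis, 1 to 6 for chronic colitis and 0 or 1 for food allergy. The WT control library, which stood lowest in 9 of the 16 types, is a reference in each of these fits.

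Hist1h1e was called in ILC2, tissue lymphocytes that make type 2 cytokines. In the order control, acute, chronic and food allergy it had 77.35, 91.58, 87.47 and 84.95 CPM in WT and 162.0, 132.2, 177.8 and 131.0 CPM in AppNL-G-F. The 4 AppNL-G-F values lay above the 4 WT values, and the log2 fold change was 0.85 ± 0.12 (adjusted p = 0.003707, edgeR). Without the WT or the AppNL-G-F chronic colitis library the call was lost (adjusted p = 0.06731 and 0.07159), and over all alternatives the adjusted p ran from 0.001552 to 0.07159. Ambient RNA was 53.9% of the histone UMIs of ILC2 in AppNL-G-F control, and with ambient UMIs subtracted the log2 fold change was 0.68 (adjusted p = 0.01584, edgeR).

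Gamma-delta T cells gave 2 members higher in AppNL-G-F, of 11 tested. In the same order Hist1h1b had 1, 0, 3 and 3 UMIs in WT and 13, 3, 18 and 55 UMIs in AppNL-G-F, or 1.059, 0, 5.071 and 5.837 CPM against 20.55, 10.89, 38.63 and 80.09 CPM. The groups did not overlap, and the log2 fold change was 3.61 ± 0.41 (adjusted p = 0.002705, edgeR). The call was lost without the WT food allergy library (adjusted p = 0.07422) or the AppNL-G-F food allergy library (0.2037). In this last library the summed histone level of gamma-delta T cells ran from 438.8 to 2872 CPM over 4 hashtag groups.

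Hist1h1e in gamma-delta T cells had 42.36, 88.0, 113.3 and 73.93 CPM in WT and 91.69, 123.5, 272.6 and 193.7 CPM in AppNL-G-F, in the same order. It was higher in AppNL-G-F by 1.14 ± 0.16 (adjusted p = 0.01138, edgeR) and in chronic colitis than in control by 1.44 ± 0.22 (adjusted p = 0.01167, edgeR). The WT and AppNL-G-F values overlapped. The call for the genotype was lost with DESeq2 (adjusted p = 0.1448), without either chronic colitis library (0.1018 for WT and 0.09363 for AppNL-G-F) and without either food allergy library (0.1722 and 0.136). The call for chronic colitis was lost without either of its libraries (0.1057 and 0.308). The G2/M genes of these cells had 93.19, 37.72, 170.7 and 58.37 CPM in WT and 41.1, 39.94, 251.1 and 201.0 CPM in AppNL-G-F, and ambient RNA was 54.3% of their histone UMIs in AppNL-G-F control. With ambient UMIs subtracted the calls of Hist1h1e in these cells were kept. The part of the G2/M genes in the calls was not tested.

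The last call was Hist1h1e in type 1 dendritic cells, which present antigen to CD8 T cells. It had 72.68, 89.44, 135.7 and 54.93 CPM in WT and 87.83, 150.1, 171.1 and 108.6 CPM in AppNL-G-F. Chronic colitis was higher than control in either genotype, by 1.02 ± 0.17 on the log2 scale (adjusted p = 0.02491, edgeR). The call was lost without the WT chronic colitis library (adjusted p = 0.3974), the AppNL-G-F control library (0.05937) or the AppNL-G-F chronic colitis library (0.09946).

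Histone RNA was also found outside cells. In barcodes too low in UMIs to hold a cell, it made up 2617 CPM in WT control, 7005 CPM in WT acute colitis, 12550 CPM in WT chronic colitis and 5766 CPM in WT food allergy. In AppNL-G-F it was 22030 CPM in control, 10200 CPM in acute colitis, 19560 CPM in chronic colitis and 19570 CPM in food allergy. Cells of the same libraries had 1382 to 2981 CPM, so the empty barcodes were 1.71 (WT control) to 7.67 (AppNL-G-F control) times as rich in histone RNA. With 1 library per condition these values carry no test.

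The families and members were not enriched alike there. Pooled over libraries, empty barcodes held 4.46 times the CPM of cells for H1 and 5.03 times for H2A, but 11.4 times for H2B, 14.5 times for H3 and 11.5 times for H4. Hist1h4d (14.8 times), Hist1h3e (14.7 times) and Hist1h2ab (17.0 times) were far above Hist1h2ap (1.03 times) and Hist1h4i (1.15 times). By the annotated ends described above, 19 members with at least 100 UMIs in each class had medians of 4.66 times where the transcript runs at least 100 bases past the stem-loop (0 to 24.0), 7.23 times where no stem-loop was found (1.41 to 17.1) and 12.2 times where it stops sooner (1.03 to 29.7). The ranges of the 3 classes overlapped over nearly their whole width. Subtracting the estimated ambient UMIs took the median of pro-B and large pre-B cells from 8180 to 8143 CPM and that of small pre-B and immature B cells from 8106 to 8069 CPM. Ambient RNA was at most 1.29% of the histone UMIs in pro-B and large pre-B cells and 3.03% in small pre-B and immature B cells.

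**Figure D5:**
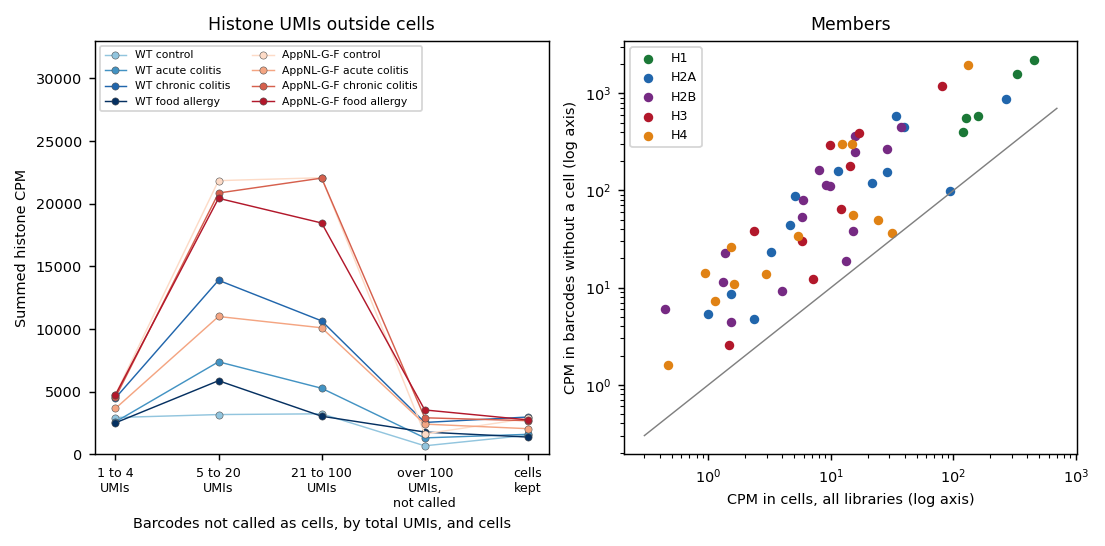
Left, summed histone CPM (linear axis) in barcodes not called as cells, grouped by their total UMIs up to over 100, and in the cells kept, with 1 line per library. At 5 to 20 UMIs WT control is lowest (3177 CPM) and AppNL-G-F control highest (21840 CPM), and each library lies above its own cells. Right, CPM of each member in barcodes without a cell against CPM in cells (both axes log, all libraries, grey line of equal CPM, colours by family), where most members lie above the line.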

How the data were processed

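Single-cell libraries were made by the authors from CD45.2-positive brain cells of WT and AppNL-G-F mice. The deposited values are UMI counts per gene and barcode, made with Cell Ranger (version 6.1.2 in the submitters' processing notes, version 4 in the file headers) and neither filtered nor normalized, and reads that map to several genes are not counted. Depth per library is given in the report, and intervals cover counting error only. No per-sample column was left unused.

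Barcodes were called as cells above an order-of-magnitude cutoff for 3000 expected cells, or from 500 UMIs where they differed from ambient RNA (barcode ranks 45000 to 90000, 1000 simulations, false discovery rate 0.01). Cells with under 200 genes or over 5% mitochondrial UMIs were left out. Cells with several hashtags were kept, and left out as an alternative. No other doublet caller was run. Cell types came from gates of 189 markers (at least 3 markers seen, score 0.15, margin 0.05), with Leiden clusters (resolution 0.5, made without histone and cell cycle genes) as an alternative. Levels of types were given per library from 20 cells and levels of classes from 10. A library entered a comparison from 10 cells of each group.

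UMIs were summed per library and type, since cells are not replicates. Comparisons used edgeR 4.0.16 (quasi-likelihood test, Benjamini-Hochberg over all genes tested, threshold 0.05) in R 4.3.3, with the library as a block where each library gave both groups, and genotype plus treatment otherwise. DESeq2 1.42.0 was an alternative. The fits were tested on simulated data. Python 3.11.15, scanpy 1.11.5 and scipy 1.17.1 did the rest. No condition had a second library, so conditions could be compared only under the additive fit.

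Named members were the 15 with the most UMIs and, per comparison, up to 5 called members with the largest rise and 5 with the largest fall, and in the additive fits every called member. Other members were chosen after their values were seen. Hist3h2ba was such a member between G2/M-gene and S-gene cells and against mature B cells. The members, lists and markers were chosen with earlier results of these data known. Coordinates are those of GRCm38.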

Additional observations from a re-analysis of the deposited data

Results flagged for a closer look

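In 2 of the 23 cell types examined a library stood apart from the rest. The rule flags about 1 of 20 groups by chance alone, so about this many flags can come from chance. Mast cells of the AppNL-G-F food allergy library had 3519 CPM of histone RNA, where the other 6 libraries had 125.8 to 1558 CPM. Fibroblasts of the WT acute colitis library had 1120 CPM, where the other 4 had 413.4 to 486.8 CPM. These types had few cells per library (27 to 51 mast cells, 25 to 63 fibroblasts), so the sums rest on few cells.

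Barcodes without a cell were not part of the comparisons and held histone RNA. In WT the treated libraries lay above the control, which had 2617 CPM: acute colitis had 7005 CPM, chronic colitis 12550 CPM and food allergy 5766 CPM. In AppNL-G-F the control was the highest, at 22030 CPM, so the order of control and treated libraries was not shared by the genotypes. The difference was not tested.

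A cluster that no set of markers named also held histone RNA. Its 52 cells had a median of 834.5 UMIs, 96.2% of them came from the WT food allergy library, and their histone genes had 20500 CPM, above every cell type.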

How the results depend on the processing

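Named members kept their direction and their side of the threshold in most alternatives, and 53 values lost a call, 12 gained 1 and 18 turned. For the main results, 43 values moved under an alternative and 51 stayed the same. Results of the B lineage rested on cell typing. The gates of immature and mature neutrophils were also split over clusters, as given above. With Leiden clusters, 34 members were called between the early B stages and 11 between small pre-B and mature B cells. With cells of neither list alone, 3 and 9 were called, 16 for neutrophil precursors and 4 for immature neutrophils. The shares of all genes in these alternatives stand beside the counts in the results above. With clusters the log2 fold change turned between the early B stages for Hist1h2bc (0.39), Hist1h1c (0.66) and Hist1h1e (0.87). Against mature B cells it turned for Hist1h1b (-0.23), Hist1h2ae (-0.53), Hist1h4d (-0.28), Hist1h2ap (-1.41), Hist2h2ac (-0.32), Hist1h2bj (0.00), Hist1h2ab (-0.21) and Hist1h2ak (-0.10), and in immature neutrophils for Hist1h4i (1.18). With neither list alone it turned for Hist3h2ba (0.02, early B), Hist1h4d (-0.02, against mature B) and, in immature neutrophils, Hist1h1c (-0.41), Hist1h3e (-0.34) and Hist1h2ab (-0.37). Without cells of several hashtags Hist1h1a (1.0) turned in immature neutrophils. The causes were not tested.

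For genotype, acute colitis, chronic colitis and food allergy, keeping every gene with 1 count gave 99, 40, 58 and 18 calls, and leaving out cells with several hashtags gave 6, 3, 6 and 1. With ambient UMIs subtracted 2, 6 and 2 were called for the 3 treatments, and DESeq2 called 4 for chronic colitis. Leaving out each library in turn gave 2 to 35, 0 to 26, 1 to 33 and 0 to 14 calls. The cause was not tested. The share of all genes called in the same setting is printed above for part of the leave-one-out fits. It is not given for the other counts of genotype and treatment or for any count of DESeq2. Those counts are not read as results about the members. The ambient, neither-list, S-gene and precursor leave-one-out alternatives were chosen after seeing the data. The median share of cells with a histone UMI over the 16 types was 36.77%, and 80.68% without thinning, 11.57% for at least 2 UMIs and 56.79% after thinning to 2000 UMIs. The summed level stayed within the spread of the libraries in each alternative tried (757.7 to 1092 CPM, against 890.8).

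Each condition had 1 library, so conditions were compared under the additive fit alone. Where both groups came from the same libraries, the library was the block, so the groups were compared within each library.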

Other observations

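Barcodes below the level of a cell were split by depth. Those with 1 to 4 UMIs held 2516 to 4771 CPM of histone RNA over the 8 libraries, those with 5 to 20 UMIs held 3177 to 21840 CPM, and those with 21 to 100 UMIs held 3044 to 22070 CPM. Those with over 100 UMIs that were not called as cells held 683.8 to 3544 CPM, beside 1382 to 2981 CPM in the cells kept. Over members, Hist1h3c had 29.7 times and Hist1h4c 24.0 times the CPM of cells in empty barcodes, the highest ratios, and Hist3h2a was at 0 UMIs there. These 3 members were chosen after their values were seen.

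Members known from the testis were rare in these cells. Hist1h1t (H1) had 58 UMIs, Hist1h2aa (H2A) 8 and Hist1h2ba (H2B) 0, of 682677 histone UMIs. These members were also chosen after their values were seen.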
